A study of Homo sapiens with 5 samples.

Results

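L1236 was set against L428 and L591, the other 2 Hodgkin lymphoma cell lines of the series, by the positions of their DNase I hypersensitive peaks. A peak of L1236 entered the first class when it shared no base with any L428 or L591 peak. A region entered the second class when L428 and L591 peaks overlapped each other by at least 1 bp and no L1236 peak touched them. On chromosomes 1 to 22 the first class held 12381 of the 24971 L1236 peaks, and the second held 6159 of the 14190 regions that L428 and L591 shared. The 5 lists of the series together held 106904 peaks on these chromosomes. The classes were made from presence and absence of peaks, so their existence is not a result. Their sizes were read against the sizes that the same rule gave for the other lines, and width, score, position and overlap with outside lines were then described.

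DNase I cuts DNA where nucleosomes have been displaced by bound factors, so its peaks mark promoters, enhancers, insulators and other accessible elements. Hodgkin lymphoma is driven by Hodgkin and Reed-Sternberg cells, which descend from germinal centre B cells and have silenced much of the B cell programme while keeping NF-kB, AP-1 and JAK-STAT signalling active. Open promoters are mostly shared between cell types, and distal elements vary more.

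L1236, L428 and L591 are established Hodgkin lines, each derived from 1 patient, and L591 is known for carrying Epstein-Barr virus. The outside references were Reh, a pro-B lymphoblastic leukaemia line, and Namalwa, a Burkitt lymphoma line. All 5 lines were untreated, grown in the same medium and used at passage 7. The DNase I used on nuclei was 6 U/ml in L1236, in L428 and in Reh, and it was 12 U/ml in L591 and in Namalwa. Each line gave 1 library and 1 peak list. No spread within a line could therefore be measured, and an exact permutation over 3 lines cannot give a p below 1 in 3, so no test was run and values are given with exact 95% binomial intervals that cover counting error only. The labelled cell types could not be checked against marker genes, because the gene annotation at hand was of another genome build than the files (hg18). Regions are given by hg18 position without genes, and no sequence is shown.

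The Hodgkin lists were of similar length on these chromosomes, with 24971 peaks in L1236, 22758 in L428 and 26030 in L591, while Reh had 27502 and Namalwa 5643. Median peak width was 310 bp in L1236, 320 bp in L428 and 450 bp in L591. The score of a peak is the authors' peak area, with no stated scaling to read depth, so it was used as a percentile within its own list. Scores per bp started at 12.0 in L1236, at 6.60 in L428 and at 5.70 in L591. The L1236 list was also the only 1 of the 5 without the qcTrimmed mark. Whether the lists were held to an equal threshold is not known, and the part of these differences in the results below cannot be told apart from the line itself. A missing peak means that none was listed, not that the site was closed.

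L1236 was the line least covered by the other Hodgkin lines. Of its peaks, 49.6% (interval 49.0 to 50.2) had no counterpart in L428 or L591. Under the same rule 26.3% (25.8 to 26.9) of L428 peaks and 35.4% (34.8 to 36.0) of L591 peaks were found in that line alone. Another 33.4% of L1236 peaks lay in both other lines, 11.4% in L591 only and 5.60% in L428 only. The smallest of these sets was that with L428, the line digested at the same DNase I concentration. The L428 list was also shorter than that of L591 (22758 against 26030 peaks) and covered less sequence (8.45 against 13.9 Mb). These differences cannot be told apart from the concentration.

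L1236 also led in the reverse class. Of the 14190 regions shared by L428 and L591, 43.4% (42.6 to 44.2) lacked an L1236 peak. Of the 10162 regions shared by L1236 and L591, 22.7% (21.9 to 23.5) lacked an L428 peak, and of the 9252 regions shared by L1236 and L428, 14.3% (13.6 to 15.0) lacked an L591 peak. In numbers, 6159 regions were missing from L1236 alone, 2303 from L428 alone and 1322 from L591 alone. Seen from each list, the class took up 6882 L428 peaks (30.2% of that list) and 6284 L591 peaks (24.1%). The wider L591 peaks give L591 more chances of an overlap, so the shares found alone were also taken with all peaks set to 200 bp. L1236 again led there with 55.3%, ahead of L591 with 39.6% and L428 with 32.6%. The shares of regions missing from each line were not compared at that width.

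**Figure D1:**
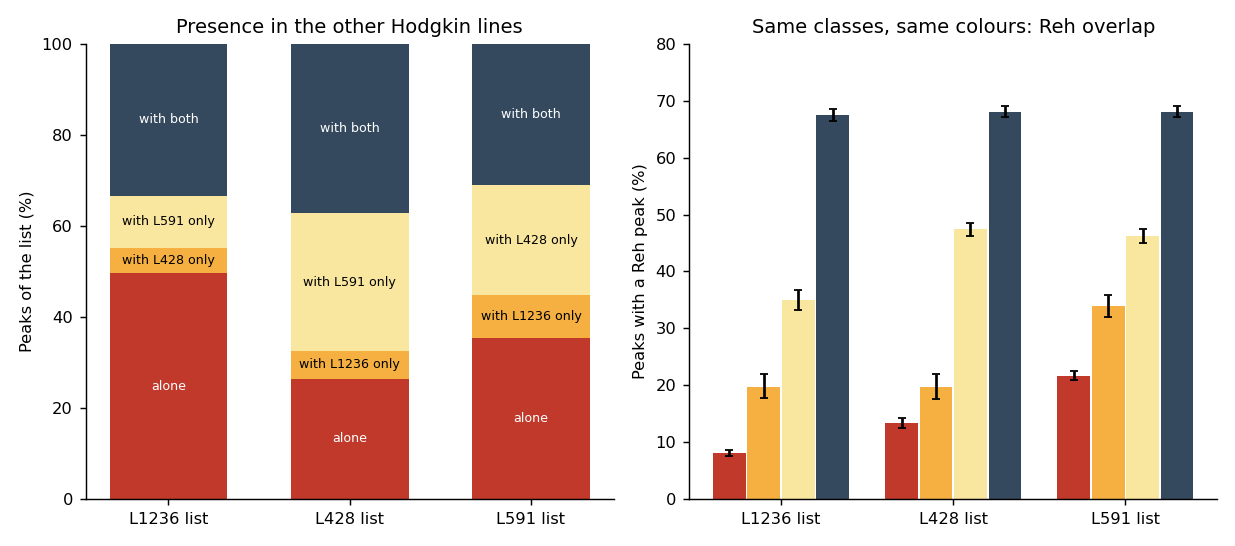
Left, percentage of the peaks of each Hodgkin list that were found alone, with 1 named other Hodgkin line only, or with both. Right, percentage of the peaks of each class with a Reh peak, in the same colours, with exact 95% binomial intervals as error bars. The L1236 list has the largest share found alone (49.6%), and those peaks have the lowest Reh overlap (8.10%).

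The outside lines separated the classes. Only 8.10% (7.63 to 8.60) of the L1236-only peaks, 1003 in number, overlapped a Reh peak, against 46.1% (44.8 to 47.3) of the regions shared by L428 and L591 without L1236, 2839 in number. Namalwa had a peak at 0.808% of the L1236-only peaks and at 11.5% of the shared regions without L1236. A region of a pair has passed a second list, so classes of 1 line and of a pair are not on equal terms. Among classes of 1 line, the Reh share was 13.4% (12.5 to 14.3) for L428 alone and 21.7% (20.8 to 22.5) for L591 alone, both above that of L1236. The L1236 value depended on L591: with that list left out, 13.1% of the L1236 peaks without an L428 peak had a Reh peak, against 31.6% of the L428 peaks without an L1236 peak. With L428 left out the values were 9.28% and, for L591 peaks without an L1236 peak, 31.6%. Among classes of a pair, it was 33.0% (31.1 to 35.0) for L1236 with L591 and 19.5% (17.4 to 21.8) for L1236 with L428, both below that of L428 with L591. Where all 3 Hodgkin lines had a peak, about the same share had a Reh peak from each side, at 67.5% of L1236, 68.1% of L428 and 68.1% of L591 peaks.

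Seen from Reh, 1062 of its 27502 peaks (3.86%) lay in L1236 and in neither other Hodgkin line, and 3184 (11.6%) lay in L428 and L591 without L1236. The latter ranked higher in the Reh list, with a median percentile of 66.4 against 43.6. Reh peaks found in all 3 Hodgkin lines had a median percentile of 85.1. The regions missing from L1236 thus often had a peak in the leukaemia line as well, and those of L1236 alone seldom had.

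Among the regions missing from L1236, Reh overlap was higher for stronger regions up to a point. By their percentile in L591 it went from 22.1% in the lowest decile to 66.0% in the ninth and was 57.5% in the tenth. By their percentile in L428 it went from 37.0% in the lowest decile to 53.2% in the eighth and was 39.0% in the tenth. Of the L1236-only peaks, between 6.11% and 10.0% had a Reh peak in every score decile of the L1236 list, with 6.55% in the lowest and 10.0% in the highest. For L1236 peaks found in L428 or L591, Reh overlap was 49.7% in the lowest decile and 65.7% in the highest. In each decile the L1236-only peaks thus had the lower Reh overlap.

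Line-only peaks were weaker than shared peaks in all 3 lists, and least so in L1236. Their median score percentile was 39.8 in L1236, with quartiles of 18.6 and 64.3, against 28.7 in L428 and 30.0 in L591. The remaining peaks had medians of 60.7, 59.1 and 63.5. L1236 peaks shared with both other lines had a median percentile of 67.0. Their median width was 390 bp, against 270 bp for the L1236-only peaks.

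As a ratio, the shares of the lines were farthest apart among the strongest peaks. In the highest decile of each list, 699 of 2498 L1236 peaks (28.0%, interval 26.2 to 29.8) had no counterpart in the other Hodgkin lines, against 44 of 2275 in L428 (1.93%, 1.41 to 2.59) and 53 of 2602 in L591 (2.04%, 1.53 to 2.66). In the lowest decile the shares were closer, at 68.8% in L1236, 52.4% in L428 and 63.6% in L591. In the top decile of L1236, the unshared peaks were about as wide as the shared ones (medians of 770 and 800 bp) and had a similar score per bp (medians of 34.8 and 34.4). With a peak within 1000 bp counted as shared, 25.2% of the top decile of L1236 stayed alone, 1.71% of L428 and 1.96% of L591. With peaks set to 200 bp around their centres the shares were 36.9%, 8.31% and 13.6%.

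**Figure D2:**
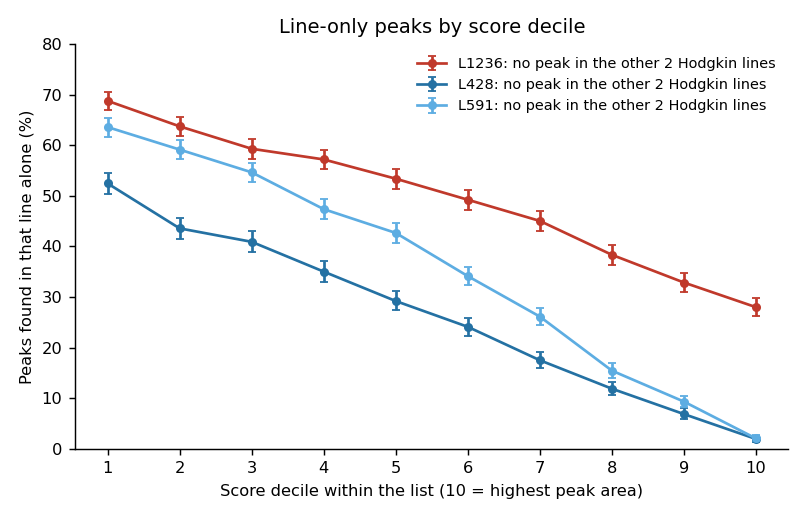
Percentage of peaks found in 1 Hodgkin line alone, by score decile within each list (10 holds the largest peak areas), with exact 95% binomial intervals as error bars. All 3 curves fall with score, but L1236 ends at 28.0% in the top decile while L428 and L591 end at 1.93% and 2.04%.

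Part of the strong L1236-only peaks were narrow spikes. Of the 2498 peaks in its top decile, 143 (5.72%) were at most 300 bp wide, against 25 (1.10%) in L428 and 15 (0.576%) in L591. Of these, 93 were found in L1236 alone, and 0 in L428 alone or L591 alone. Of the 93, 89 also lacked a Reh peak. The 93 spikes are a small part of the 699 unshared peaks of the top decile.

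The regions missing from L1236 were of middle rank in the other lines. Their median percentile was 50.1 in L428 and 51.6 in L591, and 2023 of the 6159 (32.8%) ranked above percentile 50 in both lists. Of the 8031 shared regions with an L1236 peak, 5376 (66.9%) did so. Few were among the strongest, with 77 in the top decile of both lists against 1323 of the regions that L1236 also had. In the top decile of L428, 14.9% of the peaks belonged to this class, and in that of L591 8.42%. The class was most frequent in the middle of the lists, at 36.8% of the sixth L428 decile and 31.9% of the seventh L591 decile.

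The 10 strongest L1236-only peaks all lay at or above percentile 99.5 of the list. Among them, 4 lay within 1 Mb of the longest stretch of their chromosome without a peak in any list, a measure described further on. These were the peaks on chromosomes 6 and 2 and a pair on chromosome 10. The peaks on chromosomes 11 and 18 could not count, because the measure was not used on those chromosomes. Their closeness to a centromere was thus not measured. On the 18 chromosomes where the measure was used, 30.4% of the L1236-only peaks of the top decile lay within that distance. The first of the 10 was 1270 bp wide, on chromosome 18 from 16767961 to 16769230, at 11.5 times the median score per bp of the list. An L591 peak lay 0.74 kb away and an L428 peak 1.06 kb away. The second, of 490 bp on chromosome 6 from 61971961 to 61972450, lay 0.50 kb from an L591 peak but 369 kb from the nearest L428 peak.

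Chromosome 10 held 3 of the 10. A peak of 3240 bp from 41683261 to 41686500 was the only 1 of the 10 with a Reh peak. The others lay from 38921391 to 38922430, with the nearest L428 and L591 peaks 189 kb away, and from 20076611 to 20076880. Peaks on chromosome 11 from 51429031 to 51430130 and on chromosome 2 from 91636251 to 91637550 lay 5.92 kb and 2.78 kb from the nearest L591 peak. None of the 10 had a Namalwa peak.

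The narrowest of the 10 was a spike of 160 bp on chromosome 8 from 32992161 to 32992320, at 51.9 times the median score per bp. Spikes of 260 bp on chromosome 5 from 93929351 to 93929610 and of 250 bp on chromosome 1 from 213739651 to 213739900 reached 26.7 and 26.9 times. The chromosome 5 spike missed an L428 peak and an L591 peak by 0.13 kb each, so its place in the class rests on a short gap. The chromosome 1 spike had its nearest L591 peak 67.8 kb away and its nearest L428 peak 896 kb away.

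Of the 10 strongest regions missing from L1236, 0 lay within 1 Mb of such a stretch, but those on chromosomes 12 and 17 could not count. Of all regions of the class on the 18 chromosomes used, only 0.728% lay that close, so a count of 0 says little. The 10 regions were 750 to 2350 bp wide, and 5 of the 10 had peaks in both Reh and Namalwa. The first lay on chromosome 6 from 26265071 to 26267420, at percentile 98.6 in L428 and 99.6 in L591, with peaks in Reh and Namalwa and the nearest L1236 peak 29.3 kb away. Regions on chromosome 2 from 61844371 to 61845460 and from 190356451 to 190357960, on chromosome 12 from 121276021 to 121276850 and on chromosome 8 from 145098021 to 145099140 were likewise present in Reh and Namalwa. At these 5 regions L1236 was the only line of the series without a peak.

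The other 5 had no peak in Reh or Namalwa and were thus found in L428 and L591 only. They lay on chromosome 17 from 22822521 to 22823810, chromosome 2 from 8665871 to 8666620, chromosome 10 from 112523441 to 112524410 and from 78923111 to 78924360, and chromosome 12 from 24242621 to 24244060. The last was 457 kb from the nearest L1236 peak, and the L1236 peak nearest to the chromosome 17 region was 86.8 kb away.

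At the limit of the rule, 18 L1236 peaks overlapped an L428 or L591 peak by 10 bp, the smallest overlap seen, and had a median percentile of 25.8. A further 59 L1236-only peaks lay 10 bp or less from such a peak, with a median percentile of 23.3. Most L1236-only peaks were farther away. The median distance to the nearest L428 or L591 peak was 15.1 kb, 15.6% lay within 1 kb of one and 18.2%, or 2251 peaks, lay more than 100 kb from any. Of these remote peaks, 2.22% had a Reh peak, against 11.2% of the 6794 that lay within 20 kb of an L428 or L591 peak. For the regions missing from L1236, the median distance to the nearest L1236 peak was 31.7 kb, and 25.9% lay beyond 100 kb. That distance is to 1 list and the former to 2, so they are not on equal terms.

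L1236-only peaks sat in groups. Of the 12381, 69.2% (68.4 to 70.0) had another L1236-only peak within 20 kb, and the median distance to it was 3.01 kb. For peaks found in L591 alone the share was 46.5% of 9222, and for L428 alone it was 42.1% of 5996. For the regions missing from L1236 it was 31.7% (30.5 to 32.9), with a median distance of 54.3 kb. A class with more members has closer neighbours, so these values are not on equal terms. The full lists differed less, at 74.5% in L1236, 65.3% in L428, 67.2% in L591 and 77.0% in Reh.

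Windows of 1 Mb showed where the groups were. Among the 1866 windows with at least 10 peaks over the 3 Hodgkin lists, L1236 was at least 3 times above the mean of L428 and L591 in 133 (7.13%) and at least 3 times below it in 252 (13.5%), after scaling for list length. With L428 set against the other lines the shares were 3.54% and 8.2%, and with L591 4.23% and 6.27%. The 133 windows held 3382 L1236-only peaks, 27.3% of the class, and 15.5% of all L1236 peaks, against 2.44% of L428, 2.42% of L591 and 3.15% of Reh peaks. The 252 windows held 2.13% of the L1236 list, 11.8% of the L428 list, 11.5% of the L591 list and 7.66% of the Reh list. Both sets of windows were chosen by the ratio of L1236 to the mean of L428 and L591. The unlike shares of the Hodgkin lists and of the L1236-only peaks in them thus follow from the choice and are not a result. Reh was itself at least 3 times above the mean of L428 and L591 in 15 of the 133 (11.3%) and at least 3 times below it in 88 of the 252 (34.9%). Over all 1866 windows it was above in 4.18% and below in 18.5%. Both ratios have the L428 and L591 mean as their base, so these counts are not independent of the choice of windows. The number of DNA copies of a window moves its peak count as well as accessibility does, and their parts cannot be told apart in these lists.

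**Figure D3:**
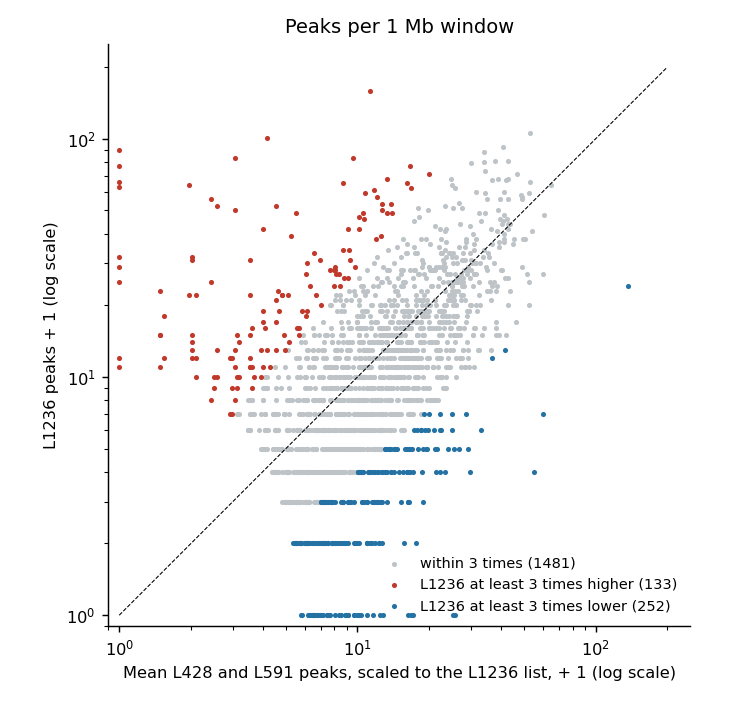
Peaks per 1 Mb window in L1236 (vertical) against the mean of L428 and L591 scaled to the L1236 list (horizontal), both plus 1 on log scales. Each of the 1866 points is a window with at least 10 Hodgkin peaks. Red marks the 133 windows with L1236 at least 3 times higher and blue the 252 with it at least 3 times lower, and the dashed line is equality.

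The most L1236-only peaks were found at 61 to 62 Mb of chromosome 7. L1236 had 158 peaks there, 155 of them its own, against 10 each in L428 and L591, with 27 in Reh and 11 in Namalwa. In the window at 48 to 49 Mb of chromosome 11, L1236 had 100 peaks, against 4 in L428 and 2 in L591, while Reh had 4 and Namalwa 0. In the window at 90 to 91 Mb of chromosome 3 it had 89 peaks and the other 4 lines had 0. Windows at 36 to 37 Mb of chromosome 12 and 33 to 34 Mb of chromosome 16 followed with 81 and 77 L1236-only peaks. Of the windows with an L1236 peak and none in L428 or L591, those at 39 to 40 Mb of chromosome 10, at 46 to 47 Mb of chromosome 5, at 50 to 51 Mb of chromosome 11 and at 13 to 14 Mb of chromosome 21 held 76, 65, 62 and 31 L1236 peaks.

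Several of these windows lie near a centromere, where the assembly holds repeated sequence to which short reads are hard to assign, and the part of such reads in the peaks was not tested. Centromere positions were not taken from an annotation. The longest stretch without a peak in any of the 5 lists was used in their place, and it lies at the centromere, or on the short arm of an acrocentric chromosome, for all but chromosomes 11, 12, 17 and 18, which were left out here. This measure was added after the windows had been seen. On the remaining 18 chromosomes, 1645 of 20860 L1236 peaks (7.89%, interval 7.52 to 8.26) lay within 1 Mb of the stretch. The share was lower in L428 (2.39%), L591 (2.09%) and Reh (4.34%), and near that of L1236 in Namalwa (7.34%), the shortest list.

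L1236 differed from the other Hodgkin lines there on every chromosome examined. On 18 of 18 chromosomes the bordering peaks took a larger part of the L1236 list than of the L428 and the L591 list. On chromosome 7 there were 217 such peaks in L1236, 11 in L428 and 11 in L591. On chromosome 10 there were 207, 42 and 45, and on chromosome 4 177, 71 and 86. The gap was smaller on chromosome 1, with 80, 49 and 65, and on chromosome 2, with 91, 64 and 67. Reh had more such peaks than L1236 on chromosomes 1 (240), 2 (152), 15 (54 against 29) and 21 (66 against 65), and fewer on the others examined. Of the L1236 peaks at these borders, 84.9% (83.1 to 86.6) were found in L1236 alone, whereas 10.6% of the 453 in L428 and 16.3% of the 454 in L591 were found in those lines alone. Reh had a peak at 83.2% of those of L428 and 78.6% of those of L591, but at 17.9% of those of L1236.

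**Figure D4:**
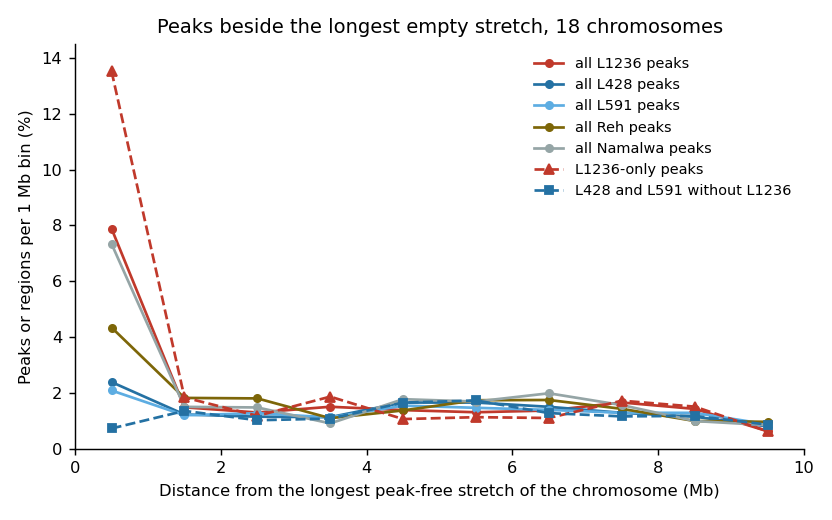
Percentage of the peaks or regions of 18 chromosomes in each 1 Mb bin of distance from the longest stretch without a peak in any list. L1236-only peaks (dashed red) reach 13.5% in the first bin and regions of L428 and L591 without L1236 (dashed blue) 0.728%. Beyond 1 Mb all curves run close together.

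On these 18 chromosomes the bordering peaks made up 1397 of the 10333 L1236-only peaks (13.5%) and 174 of the 572 in the top decile (30.4%). Chromosomes 11 and 12, which hold several of the densest windows, are outside this count. Away from the borders, on the same 18 chromosomes, 46.5% (45.8 to 47.2) of L1236 peaks were found in L1236 alone, against 26.7% in L428 and 36.1% in L591. In the top decile the share was 22.2% (20.3 to 24.2) in L1236, and 36 of 1713 peaks in L428 and 41 of 2053 in L591 were alone. The Reh share of the L1236-only peaks was 8.57% there, and 64.4% of them had another within 20 kb. Of the 117 windows with at least 20 L1236-only peaks, 27 met a border, 20 were on the 4 chromosomes left out and 70 were elsewhere. The remaining windows were not divided in this way, so the split has no base to be read against. Elsewhere does not mean far from a centromere. The window at 33 to 34 Mb of chromosome 16, with 77 L1236-only peaks, ended just short of a border.

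Several dense windows lay on chromosome arms, more than 5 Mb from the stretch. They were picked after their values had been seen. The window at 55 to 56 Mb of chromosome 19 held 59 L1236-only peaks, and was also rich in L428 (50) and L591 (51) peaks. In the window at 45 to 46 Mb of chromosome 2, L1236 had 58 peaks, 52 of them its own, against 10 in L428, 9 in L591 and 19 in Reh. In the window at 46 to 47 Mb of chromosome 7 it had 48, against 3 in L428, 6 in L591 and 0 in Reh. The window at 232 to 233 Mb of chromosome 1 (70 peaks against 19 and 18) and the window at 36 to 37 Mb of chromosome 7 (56 against 8 and 14) were alike in this.

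The regions missing from L1236 had fewer dense windows. Of these regions, 6 windows held 20 or more, with 2.94% of the class, whereas 117 windows held 20 or more L1236-only peaks, with 34.6% of that class. The class is smaller, and at a limit lowered in proportion, to 10 regions, 80 windows held 17.5% of it. The window at 138 to 139 Mb of chromosome 6 led with 59, where L428 had 170 peaks, L591 89, L1236 23, Reh 5 and Namalwa 1. All 23 L1236 peaks of that window were shared with L428 or L591. The window at 24 to 25 Mb of chromosome 12 held 29, with 51 peaks in L428, 55 in L591 and 3 each in L1236 and Reh. The window at 45 to 46 Mb of chromosome 6 held 28, with 63 peaks in L428, 51 in L591, 6 in L1236 and 4 in Reh.

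In these 3 windows Reh had no more peaks than L1236. In the next windows it had more. The window at 145 to 146 Mb of chromosome 8 held 22 regions missing from L1236, with 53 peaks in L428, 47 in L591, 19 in L1236 and 96 in Reh. The window at 1 to 2 Mb of chromosome 19 also held 22, with 49 peaks in L428, 49 in L591, 26 in L1236 and 77 in Reh.

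L1236 had no peak at all in 45 of the 252 windows in which it was low. The fullest of these was the window at 138 to 139 Mb of chromosome 9, with 24 peaks each in L428 and L591, while Reh had 55 and Namalwa 9. The window at 143 to 144 Mb of chromosome 6 had 24 in L428, 23 in L591 and 14 in Reh. The window at 69 to 70 Mb of chromosome 10 had 14 in L428, 17 in L591 and 16 in Reh. At 163 to 164 Mb of chromosome 2 and at 110 to 111 Mb of chromosome 7, L428 had 24 and 20 peaks and L591 6 and 9, while Reh had 0 and 2.

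Whole chromosomes differed too. The L1236-only share of L1236 peaks ranged from 35.6% on chromosome 19 to 61.9% on chromosome 18, with a median of 51.0% over the 22 chromosomes. It was also above 58% on chromosomes 21 (61.1%), 4 (59.5%) and 20 (58.3%), and below 40% on chromosomes 22 (38.6%), 17 (37.9%) and 6 (39.0%). The share of L428 and L591 regions missing from L1236 ranged from 28.3% on chromosome 19 to 60.4% on chromosome 21. Chromosome 19 was lowest in both classes, and L428 too had its lowest share of line-only peaks there (13.7%), so a low value on that chromosome was not particular to L1236.

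On chromosomes 6, 17 and 22 the share missing from L1236 was above the L1236-only share. The former is a share of regions that L428 and L591 both had and the latter of single L1236 peaks, so they are not on equal terms. Chromosome 6 held 4.98% of L1236 peaks, against 8.48% of L428 and 7.24% of L591 peaks, and 4.30% of Reh peaks. On it 55.9% (52.9 to 58.8) of the regions of L428 and L591 lacked an L1236 peak, while 39.0% (36.3 to 41.8) of L1236 peaks were L1236-only. On chromosomes 17 and 22 the shares were 47.2% against 37.9% and 55.8% against 38.6%. On chromosome 20 it was the opposite, with 34.6% (29.4 to 40.1) against 58.3% (54.8 to 61.8), and chromosome 20 held 3.20% of L1236 peaks against 2.14% of L428 and 2.21% of L591 peaks. On chromosomes 10 and 21 both shares were high, at 56.2% and 56.6% and at 60.4% and 61.1%.

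**Figure D5:**
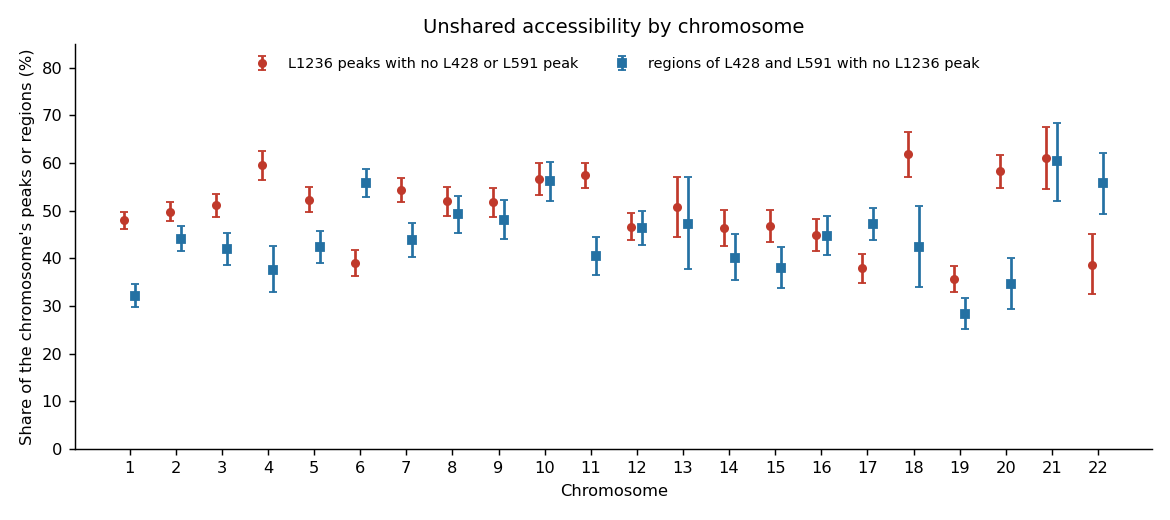
Percentage of L1236 peaks with no L428 or L591 peak (red circles) and of regions shared by L428 and L591 with no L1236 peak (blue squares) on each chromosome, with exact 95% binomial intervals as error bars. The red share is above the blue on 19 of the 22 chromosomes. Chromosomes 6, 17 and 22 show the reverse. The intervals cover counting error only, and the shares are of unlike sets.

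The DNase I concentration was the same for L1236 and L428 and higher for L591. With L428 alone as partner, 61.0% of L1236 peaks were unshared, and with L591 alone 55.2%. The L591 list is also longer than that of L428 and covers more sequence (13.9 against 8.45 Mb), and these differences cannot be told apart from the concentration. In the top decile the shares were 35.0% and 33.1%. The concentration takes only 2 values over these lines, and its part in the peak lists was not tested beyond these values.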

How the data were processed

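The deposited peaks of 5 human lines were used, with 1 DNase-seq library and 1 list per line, each line being its own group by the labels. The submitters' processing notes name Bowtie 1.00 and hg18. Per the file headers, reads were lengthened to 146 bp and counted in bins of 10 bp. Which caller and threshold gave the peaks, and the depth, is not given in the sources used here. As its score each deposited peak carries an area computed by the authors, in all cases divisible by 8. Chromosomes 1 to 22 were used. Positions are 1-based.

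Peaks were shared when they overlapped by at least 1 bp. Overlapping L428 and L591 peaks were joined into regions. Percentiles were ranks of the score within a list, and intervals were Clopper-Pearson at 95%. Named were the 10 highest-scoring members of each class (for regions, by the lower percentile of the 2 lists) and the 5 windows of 1 Mb with the most members, the highest or the lowest ratio. The members and lists were chosen with earlier results of these data known. Planned gene lists and sequence were not run, since the annotation at hand was GRCh38. Alternatives covered overlap, width, list length, joining, chromosome X and partner line. The code that assigns peaks to classes was checked on simulated lists with known members, and no count was compared with a simulated expectation. Python 3.11.15, numpy 2.4.6, pandas 2.3.3, scipy 1.17.1 and matplotlib 3.10.9 were used.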

Additional observations from a re-analysis of the deposited data

How the results depend on the processing

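L1236 kept the highest share of line-only peaks of the 3 Hodgkin lines, in the whole list and in its top decile, under each of the overlap, width, list length, joining and chromosome alternatives, and the Reh share of its own peaks stayed below that of the shared regions. No paired analysis was possible because each line has 1 library. The main share of L1236-only peaks, 49.6%, was 50.9% with 50% overlap of the shorter peak, 53.1% with centres within 250 bp, 41.9% with peaks within 1000 bp counted as shared, 55.3% with peaks of 200 bp, 48.9% with Hodgkin lists of equal length and 48.2% with peaks up to 200 bp apart joined. It was 47.1% without peaks within 1 Mb of the longest empty stretch and 46.5% when chromosomes 11, 12, 17 and 18 were also left out, both chosen after seeing the data, as were all alternatives for the top decile. Between these settings the top decile share of 28.0% was 33.3% (centres), 25.2% (1000 bp), 36.9% (200 bp), 34.0% (upper 50% of each list), 23.5% and 22.2% (without the borders, and also without the 4 chromosomes). The Reh share of L1236-only peaks, 8.10%, was 7.45% (50% overlap), 9.67% (1000 bp), 8.80% (equal length) and 7.19% (upper 50%). That of the regions missing from L1236, 46.1%, was 49.5% (equal length) and 59.2% (upper 50%). The median percentile of 39.8 was 41.1 (1000 bp), 40.7 (200 bp), 41.5 (upper 50%), 38.3 (joined) and 41.7 (score per bp). The counts of both classes were 6244 and 3251 when only the upper 50% of each list entered. With 1 partner line, the ranges over leaving out L428 or L591 were 13779 to 15231 for the L1236-only count, 55.2% to 61.0% for its share, 33.1% to 35.0% in the top decile, 40.6 to 41.2 for the median percentile, 9.28% to 13.1% for the Reh share and, for the peaks of the remaining partner without L1236, 12878 to 15506 in number and 31.57% to 31.59% with a Reh peak. In windows of 5 Mb the highest counts were 166 L1236-only peaks (at 60 to 65 Mb of chromosome 7) and 89 regions missing from L1236 (at 135 to 140 Mb of chromosome 6). Read depth is unknown, so a site just under the threshold of a list cannot be told from a closed one.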

Other observations

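Chromosome X entered no comparison above other than the alternative that added it. It held 675 peaks of L1236, 530 of L428, 582 of L591, 423 of Reh and 117 of Namalwa. Of the L1236 peaks, 386 (57.2%, exact 95% interval 53.4 to 61.0) had no L428 or L591 peak, and 16 of these (4.15%) had a Reh peak. Of the 301 regions shared by L428 and L591 there, 110 (36.5%, 31.1 to 42.3) lacked an L1236 peak, and 23.6% of those had a Reh peak.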
